A study of Arabidopsis thaliana with 12 samples.

Results

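The genes described here are 10 genes of leaf starch turnover in Arabidopsis thaliana, of 33323 genes in the count table. They are the beta-amylases BAM1 (AT3G23920), BAM3 (AT4G17090), BAM5 (AT4G15210) and BAM9 (AT5G18670), the starch synthase GBSS1 (AT1G32900), the glucan kinase SEX1 (AT1G10760), the debranching enzyme ISA3 (AT4G09020), the disproportionating enzymes DPE1 (AT5G64860) and DPE2 (AT2G40840), and the phosphorylase PHS2 (AT3G46970). The members were picked by gene identifier from a list that was chosen from earlier results on these same 12 libraries. Their levels and differences in every comparison are therefore given as a description, with no test, and support nothing. Tests are given only for genes outside this list: 58 other genes of starch metabolism, taken from the textbook pathway, and markers. These lists too were drawn up with earlier results on these libraries known, so their tests are not blind to the data.

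Leaf starch is built in the chloroplast during the day and taken apart at night, when its sugars feed the plant until dawn. Granule-bound starch synthase makes the linear polymer amylose, and the branched polymer amylopectin is made by other synthases together with branching and debranching enzymes. Breakdown starts when the glucan kinase SEX1 phosphorylates the granule surface, which opens it to beta-amylases. These enzymes cut maltose from the chain ends. Maltose leaves the chloroplast and is used in the cytosol by DPE2 and PHS2. Many transcripts of this pathway follow the time of day.

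Whole rosettes without roots of 4 genotypes were sequenced, with 3 libraries each and about 20 plants pooled in each library. Col-0 is the wild type. The cdk8-1 line is mutated in CDK8, a kinase of the Mediator complex that links transcription factors to RNA polymerase II. The jazD line combines mutations in 10 JAZ genes, whose proteins repress jasmonate responses, and jazDcdk8-1 carries both sets of mutations. Each mutant is represented by 1 line. Seedlings spent 18 days in peat and then 7 days in soil, in trays shared by the genotypes, under 16 h of light and 8 h of dark at 20 °C. The hour of harvest is not given in the sources used here.

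Total counts ran from 17583467 to 21030374 per library. Levels are given as CPM, read counts relative to TMM-scaled library size, for comparisons between genotypes, and as TPM, which corrects for transcript length, for comparisons between genes. Sums over several genes and the CDK8 levels are also in TPM, which is not TMM-scaled between genotypes. After the filter on low counts 19059 genes were tested, and all 10 members passed it. CDK8 stood at 10.3 to 12.1 TPM in Col-0 and 11.4 to 11.9 in jazD, against 1.51 to 1.71 in cdk8-1 and 1.70 to 2.12 in jazDcdk8-1. Of 9 mutated JAZ genes with enough counts, 5 fell and 3 rose in jazD against Col-0 (edgeR, adjusted p below 0.05), so the transcript level alone does not mark each mutation. Summed TPM of the 4 mesophyll markers was 42200 to 45100 in Col-0 and 48400 to 50100 in cdk8-1. It was 34000 to 37400 in jazD and 43300 to 44900 in jazDcdk8-1. Of the 4, 1 rose and 3 fell in cdk8-1 against Col-0, and 0 rose and 2 fell in jazD against Col-0. In jazDcdk8-1 against jazD 2 rose and 0 fell (edgeR, adjusted p below 0.05). Their part in the levels of the starch genes was not tested. Summed TPM of 5 flower organ markers was at most 1.52, with 1 of these genes at 0 in all cdk8-1 libraries and 2 in all jazD and all jazDcdk8-1 libraries. Correlations of log2 CPM were 0.99 to 0.9925 within a genotype and 0.9289 to 0.9811 between genotypes.

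The sequences just upstream of 5 members are shown because these genes mark the range of patterns below. BAM5 had the widest range of levels, and BAM9 and GBSS1 were both lowest in jazD and highest in cdk8-1. DPE1 and DPE2 varied least, and their nearly flat profiles lay closest of any pair of members. Each is the 250 bases before the annotated start in RefSeq TAIR10.1, read 5′ to 3′ on the strand of the gene. The windows are chr4:8669527-8669776 on the minus strand (BAM5), chr5:6225706-6225955 on the plus strand (BAM9), chr1:11923867-11924116 on the minus strand (GBSS1), chr5:25928880-25929129 on the minus strand (DPE1) and chr2:17044682-17044931 on the plus strand (DPE2). Capitals mark matches to a searched motif on either strand.
BAM5: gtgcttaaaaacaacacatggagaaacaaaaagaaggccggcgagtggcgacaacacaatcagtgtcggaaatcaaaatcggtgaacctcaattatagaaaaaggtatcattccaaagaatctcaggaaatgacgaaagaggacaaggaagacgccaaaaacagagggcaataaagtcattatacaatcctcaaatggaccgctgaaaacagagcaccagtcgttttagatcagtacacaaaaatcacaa
BAM9: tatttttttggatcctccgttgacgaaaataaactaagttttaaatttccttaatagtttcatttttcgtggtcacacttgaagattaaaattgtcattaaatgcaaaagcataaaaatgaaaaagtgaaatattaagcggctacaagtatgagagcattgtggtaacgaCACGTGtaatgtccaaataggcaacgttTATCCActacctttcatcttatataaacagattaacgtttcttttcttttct
GBSS1: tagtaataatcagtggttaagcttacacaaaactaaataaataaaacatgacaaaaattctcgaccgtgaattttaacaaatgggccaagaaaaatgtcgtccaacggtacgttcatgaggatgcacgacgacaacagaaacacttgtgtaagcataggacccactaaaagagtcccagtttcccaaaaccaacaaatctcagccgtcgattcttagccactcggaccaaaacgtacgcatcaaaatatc
DPE1: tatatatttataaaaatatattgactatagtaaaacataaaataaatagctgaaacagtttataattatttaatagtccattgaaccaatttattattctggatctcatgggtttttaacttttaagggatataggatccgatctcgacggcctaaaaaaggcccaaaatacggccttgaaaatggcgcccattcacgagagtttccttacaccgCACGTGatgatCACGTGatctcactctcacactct
DPE2: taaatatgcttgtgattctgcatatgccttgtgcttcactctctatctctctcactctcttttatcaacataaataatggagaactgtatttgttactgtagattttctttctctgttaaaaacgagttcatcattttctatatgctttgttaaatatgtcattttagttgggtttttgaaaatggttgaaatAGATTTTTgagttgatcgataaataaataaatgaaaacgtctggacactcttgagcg

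In BAM9 the capitals mark the G-box CACGTG, 80 to 75 bases before the start, and the TATCCA element TATCCA at 52 to 47 bases. DPE1 held the G-box at 35 to 30 and again at 24 to 19 bases before its start. DPE2 held the CCA1-binding site AAAAATCT on the opposite strand at 57 to 50 bases, in a window that overlaps the neighbouring gene AT2G40830. Of the members not shown, PHS2 held a G-box at 233 to 228 bases, in a window that overlaps AT3G46980, and ISA3 held the evening element AAAATATCT on the opposite strand at 39 to 31 bases. The GCC-box GCCGCC was found in none of the 10 windows, and the windows of BAM5 and GBSS1 held none of the 5 motifs. The GBSS1 window ends in the evening element without its last letter, and matches that run past the annotated start were not searched. Among 18495 windows of tested genes, 7.37% held the G-box, 14.3% the TATCCA element, 6.88% the CCA1-binding site, 2.62% the evening element and 1.92% the GCC-box. The G-box was also in 12 of the 58 windows of the other starch genes. The letters of the evening element and the CCA1-binding site do not contain each other. These matches describe the sequence and say nothing of which protein binds there.

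Among the members, TPM in Col-0 was highest for PHS2 (190 ± 10.8, SD, n = 3) and SEX1 (113 ± 7.18). It was lower for BAM3 (96.0 ± 6.54), DPE2 (88.8 ± 1.19), DPE1 (41.4 ± 1.98), BAM1 (35.3 ± 0.925), ISA3 (29.4 ± 1.87) and GBSS1 (20.4 ± 1.41). It was lowest for BAM9 (10.4 ± 0.794) and BAM5 (2.87 ± 0.436). The 10 genes took 6 different orders of the 4 genotypes: SEX1, ISA3 and PHS2 shared 1, BAM9 and GBSS1 another, DPE1 and DPE2 a further one, and BAM1, BAM3 and BAM5 had 1 each.

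**Figure D1:**
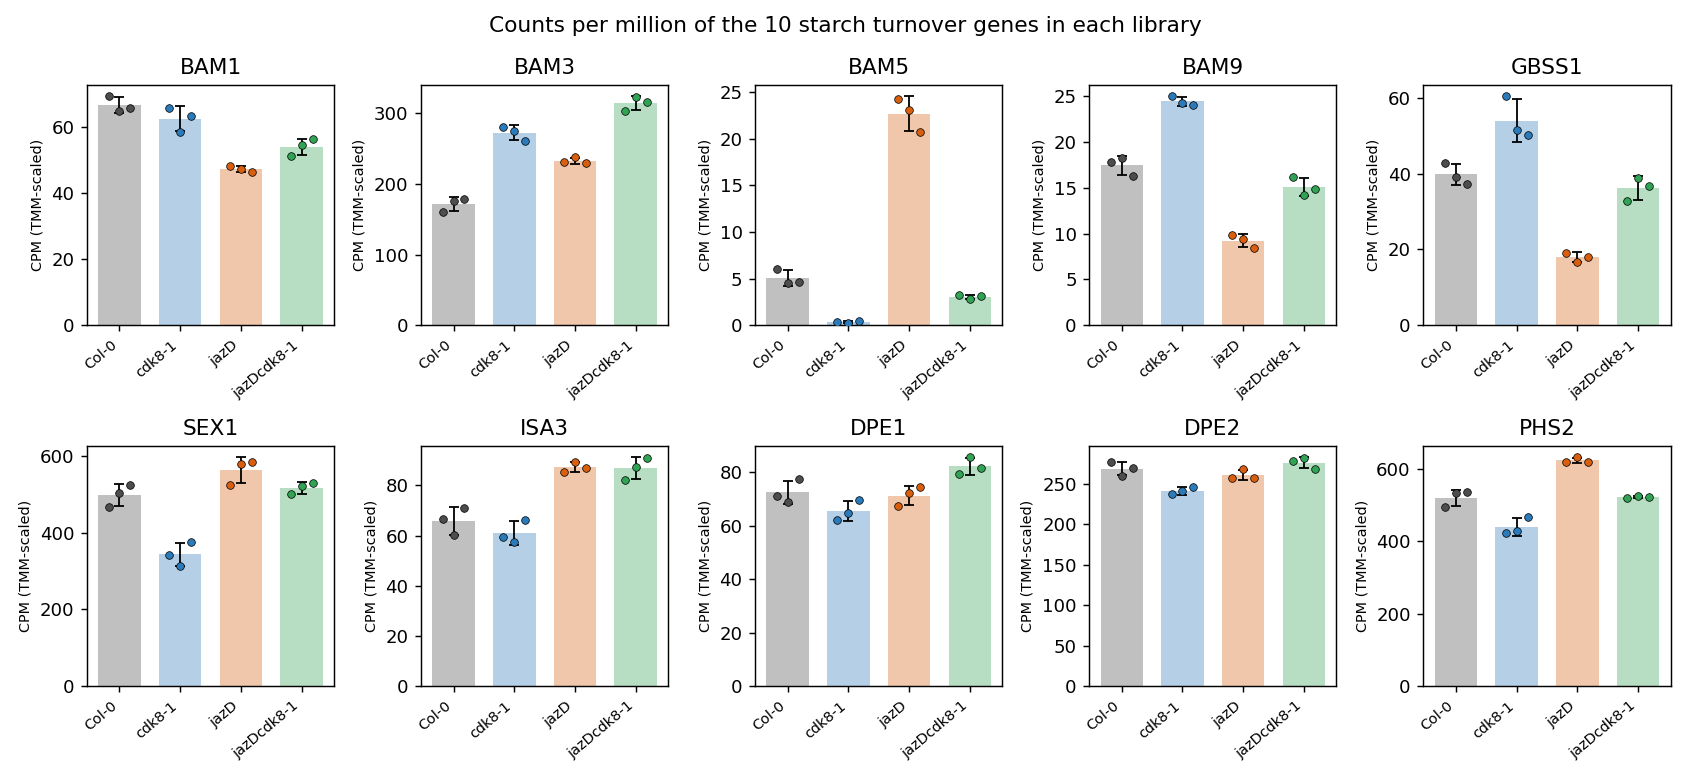
CPM (TMM-scaled, linear axis from 0) of the 10 members in 4 genotypes. Points are the 3 libraries, bars their mean and error bars their SD. BAM5 lies between 20.7 and 24.3 CPM in jazD and between 0.207 and 0.432 CPM in cdk8-1, whereas DPE2 stays between 236.8 and 281.3 CPM in all 12 libraries.

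BAM5 encodes a cytosolic beta-amylase found mainly in the phloem, apart from the chloroplast where starch lies. It had the widest range of the 10 genes. Its CPM was 6.02, 4.52 and 4.65 in Col-0, 0.299, 0.207 and 0.432 in cdk8-1, 24.3, 23.1 and 20.7 in jazD, and 3.23, 2.77 and 3.10 in jazDcdk8-1. No library of one genotype overlapped those of another, and the order was jazD, Col-0, jazDcdk8-1, cdk8-1. The highest group mean was 72.5 times the lowest. The cdk8-1 values rest on 6, 4 and 9 counts, the jazD values on 446, 470 and 349.

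Against Col-0, BAM5 was 15.7-fold lower in cdk8-1 (log2 difference -3.98 ± 0.23, approximate SE) and 4.49-fold higher in jazD (2.17 ± 0.11). The SE of each BAM5 difference that uses the cdk8-1 libraries is too small, because counts there are few. It was 7.49-fold lower in jazDcdk8-1 than in jazD (-2.90 ± 0.12). The double mutant stood at 60.0% of the Col-0 level. These sizes depend on the scale: with limma the cdk8-1 value was -1.70 on log2(TPM + 1) and -3.39 on log2(TPM + 0.1), and jazDcdk8-1 against Col-0 was -0.46 on log2(TPM + 1) in place of -0.74. The log2 difference linked to cdk8-1 was 1.07 ± 0.32 smaller in size in jazD plants than in plants with intact JAZ genes. On the log2(TPM + 1) scale, where the pseudocount outweighs the cdk8-1 level, this difference took the other sign (-0.53).

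Markers of the phloem moved as well. Of 8 phloem markers, 6 fell and 2 rose in cdk8-1 against Col-0, and 6 fell and 2 rose in jazD against Col-0 (edgeR, adjusted p below 0.05). In jazDcdk8-1 against jazD, 5 fell and 0 rose. Their summed TPM was 535 to 561 in Col-0, 398 to 436 in cdk8-1, 496 to 532 in jazD and 415 to 428 in jazDcdk8-1, and no marker was at 0. The companion cell sucrose transporter SUC2 fell by 0.61 ± 0.05 log2 in cdk8-1 (edgeR, adjusted p = 5.68e-09) and by 0.51 ± 0.05 in jazDcdk8-1 against jazD (adjusted p = 4.53e-08). In jazD, where BAM5 was highest, SUC2 fell by 0.14 ± 0.05 (edgeR, adjusted p = 0.0244), and its libraries overlapped those of Col-0. The 6 markers that fell there did so by 0.14 to 0.55 log2. The 2 that rose moved further, SWEET12 by 1.37 ± 0.07 (edgeR, adjusted p = 1.31e-12) and SWEET11 by 0.67 ± 0.05 (edgeR, adjusted p = 1.44e-09). The part of these markers in the BAM5 levels was not tested. In such bulk tissue, fewer cells of a type and less RNA per cell cannot be told apart.

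BAM3 is the main beta-amylase of leaf starch breakdown at night and sits in the chloroplast. It was higher than Col-0 in all 3 mutants. Its CPM was 160.9, 176.0 and 179.1 in Col-0, 281.4, 275.3 and 260.8 in cdk8-1, 231.5, 238.2 and 230.1 in jazD, and 303.7, 323.2 and 316.2 in jazDcdk8-1. The 4 genotypes did not overlap, with the double mutant highest and Col-0 lowest. As a share of the Col-0 mean this was 158% in cdk8-1, 136% in jazD and 183% in jazDcdk8-1. The log2 difference was 0.66 ± 0.05 for cdk8-1 and 0.44 ± 0.05 for jazD, both against Col-0, and 0.43 ± 0.05 for jazDcdk8-1 against jazD. BAM3 overlaps the opposite-strand gene AT4G17085 by 13 bases, and that gene stood at 2.36 to 3.29 CPM. The strand setting of the counting is not given, so reads from the shared bases cannot be told apart.

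BAM1 is a second chloroplast beta-amylase, known for its part in guard cells and under stress. Its CPM was 69.4, 65.0 and 65.8 in Col-0, 65.9, 58.6 and 63.4 in cdk8-1, 48.2, 47.4 and 46.4 in jazD, and 51.3, 54.6 and 56.3 in jazDcdk8-1. Col-0 and cdk8-1 overlapped, while jazD lay below both and jazDcdk8-1 lay between. The log2 difference from Col-0 was -0.50 ± 0.05 in jazD and -0.30 ± 0.05 in jazDcdk8-1. Guard cell markers, 5 genes, summed to 159 to 182 TPM in Col-0, 182 to 200 in cdk8-1, 184 to 194 in jazD and 240 to 250 in jazDcdk8-1, with no gene at 0. The markers did not move together: in jazD against Col-0 2 rose, 1 fell and 2 were not called, and in jazDcdk8-1 against jazD 3 rose and 0 fell (edgeR, adjusted p below 0.05). KAT1 and FAMA were chosen after their values were seen. The potassium channel gene KAT1 fell by 1.25 ± 0.07 log2 in jazD (edgeR, adjusted p = 5.55e-12) and rose by 1.26 ± 0.07 in jazDcdk8-1 against jazD (edgeR, adjusted p = 8.94e-12). FAMA rose by 0.37 ± 0.07 in both comparisons (edgeR, adjusted p = 0.000146 and 0.000116). The part of these markers in the BAM1 levels was not tested.

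BAM9 is a chloroplast protein of the family that lacks catalytic activity. Its CPM was 17.9, 18.2 and 16.2 in Col-0, 24.95, 24.2 and 24.1 in cdk8-1, 9.86, 9.43 and 8.41 in jazD, and 16.1, 14.2 and 14.9 in jazDcdk8-1. The genotypes did not overlap: cdk8-1 was highest at 140% of the Col-0 mean, jazDcdk8-1 stood at 86.4% and jazD was lowest at 53.0%. The log2 difference was 0.49 ± 0.07 in cdk8-1 against Col-0, -0.91 ± 0.08 in jazD against Col-0 and 0.70 ± 0.08 in jazDcdk8-1 against jazD. BAM9 overlaps TLP11 (AT5G18680) by 33 bases on the other strand, and TLP11 stood at 30.7 to 44.1 CPM, so shared reads cannot be told apart here either.

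**Figure D2:**
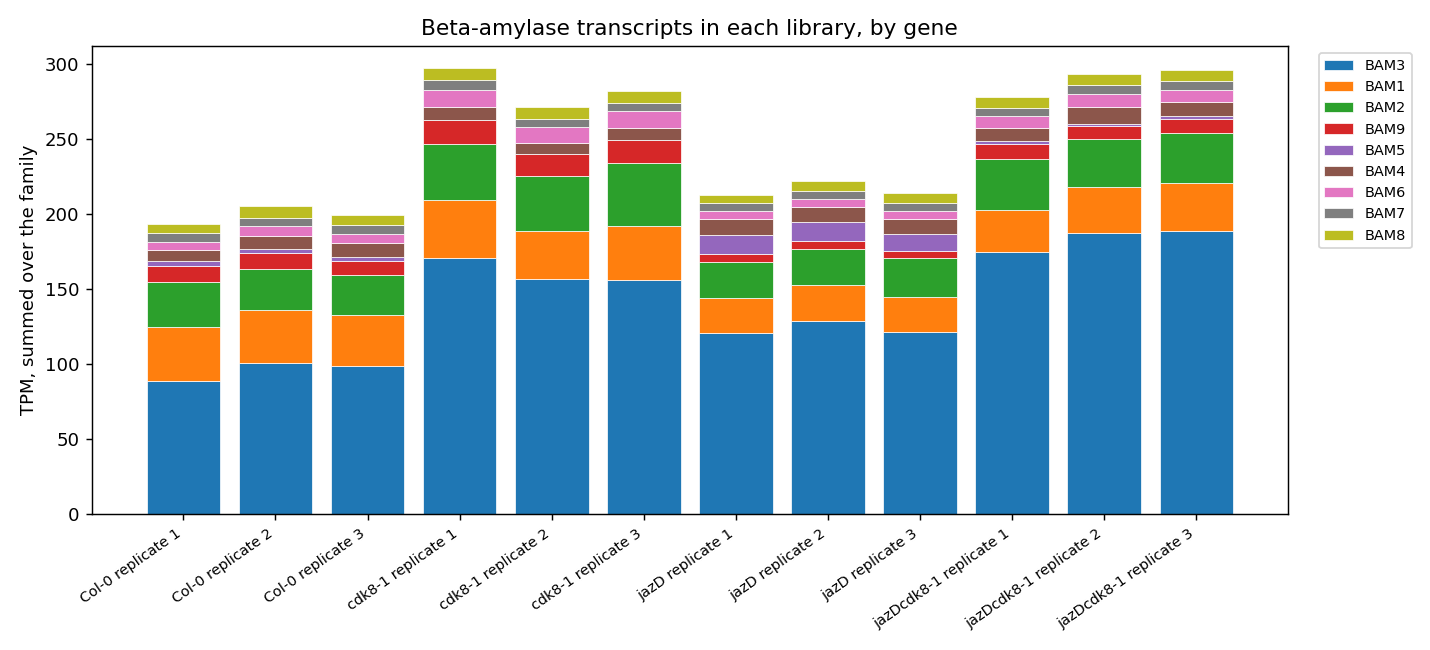
TPM of the 9 beta-amylase genes stacked for each of the 12 libraries. The family summed to 193.5 to 205.1 TPM in Col-0 and to 278.1 to 295.9 in jazDcdk8-1, and BAM3 is the largest segment in every library.

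Across the whole family of 9 beta-amylase genes, the summed level per length was 199 ± 5.80 TPM in Col-0, 284 ± 13.1 in cdk8-1, 216 ± 4.96 in jazD and 289 ± 9.68 in jazDcdk8-1 (SD, n = 3). TPM is not TMM-scaled, and all genes shifted on it. With limma on log2(TPM + 1) the median of all genes against Col-0 was 0.075 in cdk8-1, -0.063 in jazD and 0.071 in jazDcdk8-1. BAM3 made up 48.1% of it in Col-0, 56.9% in cdk8-1, 57.1% in jazD and 63.5% in jazDcdk8-1. BAM1 went from 17.7% in Col-0 to 10.4% in jazDcdk8-1. BAM5 contributed 1.44%, 0.0656%, 5.64% and 0.625% in the order Col-0, cdk8-1, jazD, jazDcdk8-1.

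The 5 beta-amylases outside the member list were tested. BAM6 rose by 0.78 ± 0.08 log2 in cdk8-1 against Col-0 (edgeR quasi-likelihood test, adjusted p = 2.23e-07) and by 0.44 ± 0.08 in jazDcdk8-1 against jazD (edgeR, adjusted p = 0.000286). BAM2 rose by 0.40 ± 0.06 (edgeR, adjusted p = 6.84e-05) and 0.30 ± 0.07 (edgeR, adjusted p = 0.00107) in the same comparisons. Against Col-0, the double mutant was higher for BAM6 (0.38 ± 0.08, edgeR adjusted p = 0.00121) and BAM2 (0.19 ± 0.06, edgeR adjusted p = 0.0248). BAM2 no longer passed there when Col-0 replicate 2 or 3 or jazDcdk8-1 replicate 1 was left out (edgeR, adjusted p from 0.108 to 0.116). BAM4, a catalytically inactive regulator of starch breakdown, rose by 0.32 ± 0.09 in jazD (edgeR, adjusted p = 0.00731), which was lost without Col-0 replicate 1 (edgeR, adjusted p = 0.0522) and with limma on log2(TPM + 1) (adjusted p = 0.0615). BAM7 and BAM8, which carry a DNA-binding domain, were not called by edgeR in these 5 comparisons. BAM8 passed under other settings: in cdk8-1 against Col-0 with total-count scaling (0.23, edgeR adjusted p = 0.027), and in jazDcdk8-1 against jazD with total-count scaling (0.20, edgeR adjusted p = 0.0484) and limma on log2(TPM + 1) (0.24, adjusted p = 0.0253). BAM2 in jazD against Col-0, -0.10 and not called, passed with limma on log2(TPM + 1) (-0.17, adjusted p = 0.0483). BAM4 in jazDcdk8-1 against jazD, -0.20 and not called, passed without jazDcdk8-1 replicate 2 (-0.30, edgeR adjusted p = 0.0216). In the test of a different cdk8-1 effect in the 2 JAZ backgrounds, 0 of the 5 were called by edgeR. BAM6 lay close to the threshold (-0.34 ± 0.12, edgeR adjusted p = 0.0523). It passed with RLE scaling (-0.34, edgeR adjusted p = 0.0499) and without jazDcdk8-1 replicate 2 (-0.41, edgeR adjusted p = 0.0286).

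GBSS1, the synthase that makes amylose, had the same order of genotypes as BAM9. Its CPM was 42.9, 39.2 and 37.4 in Col-0, 60.4, 51.5 and 50.1 in cdk8-1, 19.2, 16.6 and 18.1 in jazD, and 32.7, 38.9 and 36.8 in jazDcdk8-1. The jazD libraries lay well below all others and the cdk8-1 libraries above all others, while Col-0 and jazDcdk8-1 overlapped. The group means were 136% of Col-0 in cdk8-1, 45.1% in jazD and 90.7% in jazDcdk8-1. The log2 difference of GBSS1 was -1.15 ± 0.09 in jazD against Col-0 and 1.01 ± 0.09 in jazDcdk8-1 against jazD. The profiles of BAM9 and GBSS1 differed by a root mean square of 0.166 log2 over the 12 libraries, after centring each.

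Transcripts of clock genes differed between the genotypes as well. Of 10 clock genes, 1 rose and 6 fell in cdk8-1 against Col-0, 6 rose and 4 fell in jazD against Col-0, 3 rose and 5 fell in jazDcdk8-1 against jazD, and 5 rose and 4 fell in jazDcdk8-1 against Col-0 (edgeR, adjusted p below 0.05). The morning factor CCA1 fell by 1.58 ± 0.07 log2 in jazD (edgeR, adjusted p = 1.58e-13) and rose by 0.26 ± 0.08 in jazDcdk8-1 against jazD (edgeR, adjusted p = 0.0148). Its partner LHY rose by 0.62 ± 0.10 in cdk8-1 (edgeR, adjusted p = 8.73e-05), fell by 1.29 ± 0.12 in jazD (edgeR, adjusted p = 2.63e-08) and rose by 0.39 ± 0.13 in jazDcdk8-1 against jazD (edgeR, adjusted p = 0.0268). LHY was the 1 clock gene that rose in cdk8-1, and CCA1 was -0.12 ± 0.07 from Col-0 there (edgeR, adjusted p = 0.174). The evening gene ELF4 fell in cdk8-1 (edgeR, adjusted p = 4e-04), rose by 2.07 ± 0.16 log2 in jazD (edgeR, adjusted p = 8.94e-10) and fell by 1.88 ± 0.16 in jazDcdk8-1 against jazD (edgeR, adjusted p = 4.57e-09). LUX, PRR5 and GI had the same signs as ELF4 in these 3 comparisons and were called in each. For GI the cdk8-1 and Col-0 libraries overlapped. TOC1 had these signs too but was not called in cdk8-1 (edgeR, adjusted p = 0.0656). PRR9 had other signs, at -0.57, -1.77 and 0.49 log2, and was called in each. PRR7 fell in cdk8-1 and in jazD, ELF3 rose in jazD, and neither was called in jazDcdk8-1 against jazD. ELF4, LUX, PRR5 and GI were chosen after their values were seen. Summed TPM of the 10 genes was 224 to 248 in Col-0, 203 to 228 in cdk8-1, 285 to 307 in jazD and 229 to 247 in jazDcdk8-1, with none at 0. The part of the clock in the levels of the starch genes was not tested.

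SEX1 encodes the glucan, water dikinase that starts starch breakdown. Its CPM was 469, 504.8 and 524.1 in Col-0, 342.6, 314.3 and 375.7 in cdk8-1, 525.7, 581.3 and 586.4 in jazD, and 500.6, 521.7 and 530.4 in jazDcdk8-1. The cdk8-1 libraries lay below all others, at 68.9% of the Col-0 mean, and the double mutant overlapped both Col-0 and jazD. The log2 difference was -0.54 ± 0.06 in cdk8-1 against Col-0. It was -0.13 ± 0.06 in jazDcdk8-1 against jazD, and 0.02 with limma on log2(TPM + 1). The effect of cdk8-1 was 0.41 ± 0.08 log2 higher in jazD plants than in plants with intact JAZ genes.

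ISA3, which removes branches during breakdown, was higher in both genotypes with JAZ mutations. Its CPM was 66.7, 60.1 and 71.1 in Col-0, 59.5, 57.4 and 66.4 in cdk8-1, 85.4, 89.5 and 87.1 in jazD, and 82.3, 87.4 and 91.1 in jazDcdk8-1. All their libraries lay above all those of Col-0 and cdk8-1, and within each pair the libraries overlapped. ISA3 stood at 132% of the Col-0 mean in jazD and in jazDcdk8-1. The log2 difference from Col-0 was 0.41 ± 0.06 in jazD and 0.40 ± 0.06 in jazDcdk8-1.

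PHS2, the cytosolic glucan phosphorylase that acts on the sugar polymer fed by DPE2, was the most abundant member. Its CPM was 494.7, 531.4 and 534.4 in Col-0, 422.1, 428.8 and 467.2 in cdk8-1, 617, 631.7 and 619.2 in jazD, and 518.7, 524.8 and 522.5 in jazDcdk8-1. It was lowest in cdk8-1 and highest in jazD, and the double mutant lay within the range of Col-0. The log2 difference was -0.24 ± 0.05 in cdk8-1 and 0.26 ± 0.05 in jazD, both against Col-0, and -0.25 ± 0.05 in jazDcdk8-1 against jazD. With limma on log2(TPM + 1) these values were -0.16, 0.18 and -0.11. The cdk8-1 effects in the 2 backgrounds differed by -0.01 ± 0.06. PHS2 shares 35 bases with PHT4;3 (AT3G46980) on the same strand, which stood at 27.0 to 30.1 CPM.

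DPE1 works in the chloroplast on short glucans left by beta-amylase, and DPE2 uses the exported maltose in the cytosol. These genes varied least. DPE1 had 71.0, 68.8 and 77.4 CPM in Col-0, 62.1, 64.7 and 69.6 in cdk8-1, 67.3, 72.2 and 74.3 in jazD, and 79.4, 85.6 and 81.6 in jazDcdk8-1. Its double mutant libraries lay above all others and the remaining genotypes overlapped in turn. DPE2 had 276.3, 259.8 and 269.7 CPM in Col-0, 236.8, 240.9 and 245.8 in cdk8-1, 257.1, 267.7 and 257.7 in jazD, and 278.5, 281.3 and 268.1 in jazDcdk8-1. Its cdk8-1 libraries lay below all others. The highest DPE2 group mean was 1.14 times the lowest, against 1.26 for DPE1. The centred profiles of the pair differed by a root mean square of 0.08 log2, the smallest of any pair of members. Flat profiles reach such a value easily: the SD of the DPE2 profile itself was 0.082 log2.

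**Figure D3:**
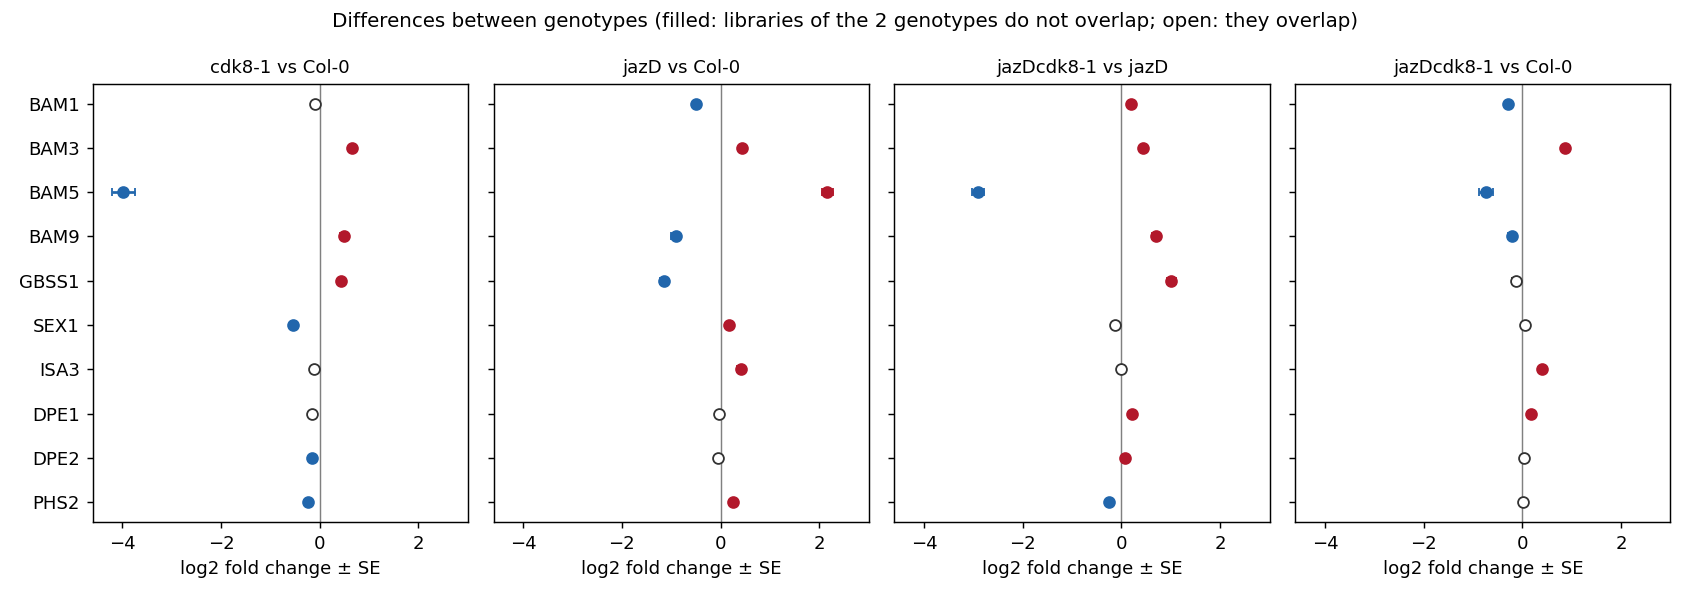
Log2 fold change of each member in 4 comparisons, with approximate standard errors (most smaller than the symbol). Filled symbols mark comparisons in which the libraries of the genotypes do not overlap, red above 0 and blue below. BAM5 lies at -3.98, 2.17, -2.90 and -0.74 from the left panel to the right, whereas the other members stay within -1.15 and 1.01.

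The members were selected on these data, so the following counts are read only as a description. In cdk8-1 against Col-0 the model called 7 of 10 members, where 25.5% of all tested genes were called, and 7 members did not overlap (37.6% of all tested genes). In jazD against Col-0 it called 8, against 42.8% of all genes, and 8 did not overlap (51.5%). In jazDcdk8-1 against jazD it called 7, against 35.8%, and 8 did not overlap (47.9%). In jazDcdk8-1 against Col-0 it called 6, against 32.4%, and 6 did not overlap (44.8%). In the test of whether the effect of cdk8-1 depends on the JAZ genes 7 were called, against 16.5% of all genes. Of these 7, 6 were higher and 1 lower, where 8.16% and 8.39% of all genes were. These comparisons share libraries, so their counts are not independent of each other.

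The other starch genes numbered 58, of which 57 were tested, and the following calls are from edgeR with p adjusted over all 19059 genes. In cdk8-1 against Col-0, 21 rose and 14 fell with a median log2 change of 0.06, where 11.7% of all genes rose, 13.8% fell and the median was 0.00. The split depended on the scaling: with total counts in place of TMM 26 rose and 8 fell, and with limma on log2(TPM + 1) 25 rose and 7 fell. On these scales the median of all genes also moved up, to 0.074 and 0.075. The genes of export and cytosolic use leaned upward, with 12 of 21 higher and 3 lower. Those of synthesis gave 5 higher and 6 lower of 21, and those of degradation 4 higher and 5 lower of 15. Among degradation genes, the alpha-amylase AMY1 rose by 1.35 ± 0.26 log2 (adjusted p = 0.000411) and the glucan dikinase GWD2 fell by 0.85 ± 0.14 (adjusted p = 8.02e-05). AMY1 had only 20 to 46 counts per library in Col-0.

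On the side of sucrose synthesis, the sucrose phosphate synthase ATSPS4F (AT4G10120) rose by 0.53 ± 0.05 log2 in cdk8-1 (edgeR, adjusted p = 3.85e-08) and the cytosolic phosphoglucomutase PGM3 by 0.50 ± 0.04 (edgeR, adjusted p = 1.90e-08). Subunits of ADP-glucose pyrophosphorylase, which makes the precursor of starch, went both ways, with APL2 up by 0.43 ± 0.06 (edgeR, adjusted p = 2.57e-05) and APL4 at -0.48 ± 0.09 (edgeR, adjusted p = 0.000268). The isoamylase ISA1, which trims amylopectin during synthesis, fell by 0.42 ± 0.05 (edgeR, adjusted p = 1.84e-06). The plastid glucose-6-phosphate translocator GPT2 fell by 0.94 ± 0.33 (edgeR, adjusted p = 0.0399). GPT2 no longer passed when any 1 Col-0 library or cdk8-1 replicate 2 or 3 was left out (edgeR, adjusted p from 0.0711 to 0.159).

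In jazD against Col-0 the other starch genes leaned downward, with 11 higher, 21 lower and a median of -0.06. Of all genes 21.8% rose and 20.9% fell, with a median of 0.00. With limma on log2(TPM + 1) the split was 8 higher and 25 lower, on a scale where the median of all genes also moved down, to -0.063. Synthesis genes made up most of the lower calls, with 11 lower and 4 higher of 21. Degradation gave 3 higher and 4 lower of 15, and export and cytosolic use 4 higher and 6 lower of 21. The branching enzyme SBE2.2 fell by 0.49 ± 0.04 log2 (edgeR, adjusted p = 3.10e-09), the isoamylase subunit ISA2 by 0.38 ± 0.05 (edgeR, adjusted p = 6.11e-07) and the starch synthase SS2 by 0.34 ± 0.05 (edgeR, adjusted p = 9.37e-06).

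Among degradation genes in jazD, the cytosolic alpha-amylase AMY2 fell by 1.03 ± 0.09 log2 (edgeR, adjusted p = 3.86e-09) and GWD2 by 0.87 ± 0.14 (edgeR, adjusted p = 3.29e-05). AMY1 fell by 1.05 ± 0.34 (edgeR, adjusted p = 0.0178), a call lost without Col-0 replicate 1 (edgeR, adjusted p = 0.14) or jazD replicate 3 (edgeR, adjusted p = 0.0779). Of the cytosolic genes, UDP-glucose pyrophosphorylase UGP2 fell by 0.55 ± 0.05 (edgeR, adjusted p = 3.39e-08) and ATSPS4F by 0.50 ± 0.05 (edgeR, adjusted p = 5.36e-08). GPT2 rose by 0.99 ± 0.27 (edgeR, adjusted p = 0.00495) and lost its call without jazD replicate 2 (0.55, edgeR adjusted p = 0.0927).

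In jazDcdk8-1 against jazD the lean was upward, with 27 higher, 5 lower and a median of 0.13. Of all genes 16.9% rose and 19.0% fell, with a median of 0. With limma on log2(TPM + 1) 40 rose and 2 fell, on a scale where the median of all genes also moved up, by 0.13. Each role list gave more higher than lower calls: 10 and 1 of 21 for synthesis, 5 and 1 of 15 for degradation, and 12 and 3 of 21 for export and cytosolic use. AMY1 rose by 2.01 ± 0.31 log2 (edgeR, adjusted p = 2.43e-05) and the phosphoglucan phosphatase LSF2 by 0.84 ± 0.06 (edgeR, adjusted p = 2.58e-10). LSF2 stood at 22.4 to 25.7 CPM in jazD and at 41.6 to 42.9 in jazDcdk8-1, next to 40.3 to 41.8 in Col-0.

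Several genes that were lower in jazD than in Col-0 were higher in the double mutant than in jazD, and both comparisons use the same jazD libraries. ATSPS4F rose by 0.66 ± 0.05 log2 against jazD (edgeR, adjusted p = 9.18e-10), UGP2 by 0.53 ± 0.05 (edgeR, adjusted p = 8.77e-08), SS2 by 0.40 ± 0.05 (edgeR, adjusted p = 1.72e-06) and the plastid phosphoglucomutase PGM1 by 0.43 ± 0.04 (edgeR, adjusted p = 5.41e-08). APL2, at 0.16 ± 0.07 in jazD against Col-0 (edgeR, adjusted p = 0.0575), rose by 0.55 ± 0.06 in the double mutant against jazD (edgeR, adjusted p = 4.59e-07). GPT2 fell by 1.84 ± 0.30 (edgeR, adjusted p = 4.09e-05).

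**Figure D4:**
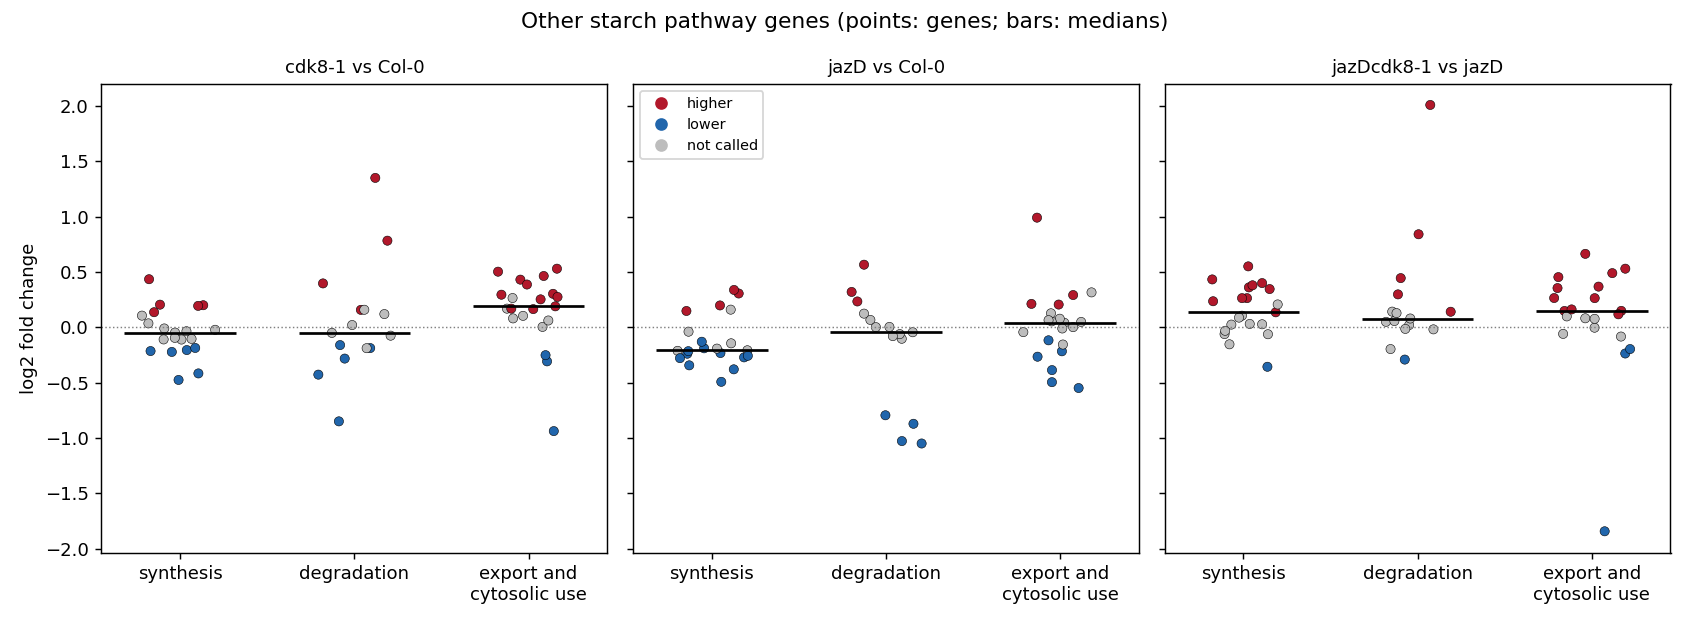
Log2 fold change of 57 tested starch pathway genes outside the member list, by role, in 3 comparisons. Points are genes, red where called higher, blue where called lower (edgeR, adjusted p below 0.05) and grey where not called, and bars are medians. In jazD against Col-0, 11 of 21 synthesis genes were lower, and in jazDcdk8-1 against jazD 10 of 21 were higher.

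Against Col-0, the double mutant had 22 other starch genes higher and 8 lower, with a median of 0.07, where 16.3% of all genes rose, 16.1% fell and the median was 0.01. AMY2 was the furthest from Col-0 of the named genes and fell by 1.32 ± 0.09 log2 (edgeR, adjusted p = 2.11e-10), while GWD2 fell by 0.89 ± 0.14 (edgeR, adjusted p = 3.60e-05). AMY1 rose by 0.96 ± 0.26 (edgeR, adjusted p = 0.00786), a call lost without Col-0 replicate 3 (edgeR, adjusted p = 0.0577). APL2 rose by 0.71 ± 0.06 (edgeR, adjusted p = 1.52e-08), and ISA1 fell by 0.29 ± 0.05 (edgeR, adjusted p = 0.000102). The sucrose phosphate synthases SPS3F (AT1G04920) and SPS2F (AT5G11110) rose by 0.77 ± 0.16 (edgeR, adjusted p = 0.000802) and 0.39 ± 0.10 (edgeR, adjusted p = 0.00351). GPT2 (-0.85 ± 0.32, edgeR adjusted p = 0.0492) no longer passed when any 1 Col-0 library, cdk8-1 replicate 2 or jazDcdk8-1 replicate 2 or 3 was left out (edgeR, adjusted p from 0.0522 to 0.18). BE1 (-0.27 ± 0.09, edgeR adjusted p = 0.0293) no longer passed when Col-0 replicate 2 or 3 or jazDcdk8-1 replicate 2 was left out (edgeR, adjusted p from 0.0549 to 0.169).

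Whether the cdk8-1 mutation had a different effect in jazD plants was tested as an interaction. Of the other starch genes, 15 had a higher and 1 a lower cdk8-1 effect in the jazD background, with a median of 0.07, where 8.16% and 8.39% of all genes did and the median was 0.00. The count of 16 fell to 9 without Col-0 replicate 3, jazD replicate 1 or jazDcdk8-1 replicate 1, and to 10 without jazD replicate 2. The higher ones were 9 of 21 synthesis genes, 5 of 15 degradation genes and 1 of 21 genes of export and cytosolic use. GWD2 differed by 0.83 ± 0.21 log2 (edgeR, adjusted p = 0.00752): it fell in cdk8-1 and stood at -0.02 ± 0.15 in jazDcdk8-1 against jazD.

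Each member was set beside all 13805 genes with a mean of at least 5 CPM, to find the 2 genes with the smallest root mean square difference of centred log2 CPM over the 12 libraries. For BAM5 these were TPS03 at 0.53 and AT4G27300 at 0.638, against a median of 2.095 over all genes. The SD of the BAM5 profile itself was 2.182, so its distances are not on the same footing as those of members that varied less. TPS03 (AT4G16740), a terpene synthase, stood at 4.87, 0.759, 33.0 and 5.92 mean CPM in Col-0, cdk8-1, jazD and jazDcdk8-1. For BAM3 they were the nitrate transporter NRT1.1 at 0.072 and KAN at 0.082, for BAM1 KIPK at 0.039 and AT3G44630 at 0.049, and for BAM9 RXW8 at 0.081 and SPA3 at 0.116. GBSS1 was nearest to MS2 and SQP1, both at 0.129.

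SEX1 was nearest to ZIP7 at 0.094 and WAKL6 at 0.098, ISA3 to AT5G12890 at 0.074 and ALDH10A8 at 0.082, and PHS2 to SYTC at 0.042 and AT1G51200 at 0.048. DPE1 was nearest to HEXO3 at 0.056 and AT1G61850 at 0.062, and DPE2 to CYL1 at 0.036 and AME3 at 0.043. No member was among the 2 nearest genes of another member. Small values are easily reached by flat profiles: the median over all genes was 0.164 for DPE2.

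The members lie at chr3:8641181-8644449 (BAM1), chr4:9604962-9607402 (BAM3), chr4:8666334-8669526 (BAM5), chr5:6225956-6228195 (BAM9) and chr1:11920390-11923866 (GBSS1), in RefSeq TAIR10.1. The others lie at chr1:3580830-3590928 (SEX1), chr4:5783909-5789100 (ISA3), chr5:25925173-25928879 (DPE1), chr2:17044932-17051062 (DPE2) and chr3:17301394-17306633 (PHS2). The values here count reads over whole genes, and the first annotated transcripts hold from 3 exons in BAM9 to 34 in SEX1.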

How the data were processed

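RNA from 12 libraries of 4 genotypes was sequenced by the authors, and 2 tables were deposited. Per the file headers, the authors ran RSEM 1.2.25 with its defaults, which gave the deposited expected counts, with no scaling between libraries. The TPM values come from the same authors' RSEM run, per the file headers, and sum to a fixed total per library. The genome was TAIR10, per the submitters' processing notes. Aligner, read trimming, annotation and the strand option of the counting are not given in the sources used here, so overlapping genes may share reads. Coordinates, names and upstream sequence were taken from RefSeq TAIR10.1, where 32835 gene identifiers were found and 488 were not.

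Expected counts were rounded to whole numbers, filtered with filterByExpr, scaled by TMM and fitted in R 4.3.3 with edgeR 4.0.16, by a quasi-likelihood F-test in which all 12 libraries share the fit and each genotype has its own mean. P-values were adjusted by Benjamini-Hochberg over the 19059 genes tested, with 0.05 as the threshold for a call. The approximate SE, the size of the log2 fold change over the root of its F statistic, is too small where counts are few. CPM are means or single libraries on TMM-scaled counts. Total counts of 17583467 to 21030374 set the precision. The scripts were tested on simulated data.

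The members and gene lists were chosen with earlier results of these data known. Named genes follow a rule: all 10 members, every beta-amylase, up to 3 called genes of largest change with at least 1 CPM per role list and comparison, and the 2 genes nearest to each member. CCA1, LHY, SUC2 and CDK8 were named as checks. KAT1, FAMA, SWEET11, SWEET12, ELF4, LUX, PRR5, GI, TOC1, PRR9, PRR7 and ELF3 fall outside the rule and were chosen after their values were seen. Libraries of a genotype are separate pools of plants, per the labels. No library duplicated another. Alternatives were RLE and total-count scaling, no filter, DESeq2 1.42.0, a minimum of 1 CPM in 3 libraries, limma 3.58.1 on log2(TPM + 1) and log2(TPM + 0.1) over the same 19059 genes, 2-group models, a replicate block and each library left out in turn. No protein sequences were used.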

Additional observations from a re-analysis of the deposited data

Results flagged for a closer look

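In 16 starch genes outside the member list the cdk8-1 effect differed between jazD plants and plants with intact JAZ genes, by the interaction test of edgeR with p adjusted over all genes. The 8 genes named by the rule of largest change per role follow. The other 8 had differences from 0.21 to 0.36 (adjusted p from 0.000164 to 0.0485), with the branching enzyme SBE2.2 at 0.36. The log2 difference was 0.83 for GWD2 (adjusted p = 0.00752), 0.68 for the phosphatase LSF2 (3.22e-06), 0.42 for the plastid phosphorylase PHS1 (6.28e-05) and 0.68 for APL4 (0.000433). It was 0.38 for both isoamylases, ISA1 (0.000634) and ISA2 (0.000214). For the triose phosphate translocator TPT it was 0.19 (0.0283) and for the plastid ATP carrier NTT2 -0.20 (0.0241). TPT no longer passed when Col-0 replicate 1 or 3, cdk8-1 replicate 1, any 1 jazD library or jazDcdk8-1 replicate 1 or 2 was left out (adjusted p from 0.0511 to 0.108). NTT2 no longer passed when Col-0 replicate 2, cdk8-1 replicate 3 or jazDcdk8-1 replicate 1 was left out (0.0509 to 0.0627). SS2, 1 of the other 8, no longer passed in edgeR with RLE scaling (0.0524), total-count scaling (0.0663) or a replicate block (0.0564). DESeq2 did not call it either (adjusted p = 0.0814). It was lost when any 1 Col-0 or jazD library, cdk8-1 replicate 2 or 3, or jazDcdk8-1 replicate 1 or 2 was left out (0.0525 to 0.158).

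DPE2 was lower than Col-0 in every cdk8-1 library (-0.155 ± 0.041 log2) and higher than jazD in every jazDcdk8-1 library (0.081 ± 0.041). The second gap was narrow, with 268.1 CPM in jazDcdk8-1 replicate 3 and 267.7 in jazD replicate 2, and the model did not call it. Libraries of jazDcdk8-1 and jazD did not overlap for 47.9% of all tested genes. The difference of the 2 effects was 0.24 log2. DPE2 is 1 of the 7 members called in the interaction model, but it was chosen with its levels known, so that call is no test and the difference was not tested in other data. It is flagged for its effects of opposite sign, not for size. The difference of effects was larger for BAM5 (1.071), GBSS1 (0.574), SEX1 (0.412), DPE1 (0.353) and BAM1 (0.284). BAM3, at -0.233, was the 1 member called lower.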

How the results depend on the processing

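Of the 50 member values (10 genes in 5 comparisons), 44 kept 1 sign in every alternative and 6 took both. One of those 6 was large: the BAM5 interaction, 1.07 as reported, was -0.53 with limma on log2(TPM + 1). TPT in jazDcdk8-1 against jazD, -0.06 and not called, was 0.083 with limma on log2(TPM + 1) and on log2(TPM + 0.1) (adjusted p = 0.0375 and 0.0363), where the median of all genes moved by 0.126 and 0.146. Of 49 calls picked by the naming rule among starch genes outside the member list, 39 held in every alternative and 10 were lost in at least 1. The SS2 interaction call is not among the 49. The counts of other starch genes called stayed within 1.5 times in every alternative apart from the interaction. With each library left out in turn they ran from 31 to 35 in cdk8-1 against Col-0, from 28 to 33 in jazD against Col-0, from 25 to 33 in jazDcdk8-1 against jazD, from 25 to 31 in jazDcdk8-1 against Col-0 and from 9 to 14 for the interaction. A fit with a replicate block called 34, 32, 31, 29 and 16, and 7934 genes in jazD against Col-0 in place of 8153. Same-numbered libraries did not deviate together (correlations from -0.058 to 0.051 over 18 pairs), so the numbers do not pair the libraries. Few counts limit BAM5 in cdk8-1 (6, 4 and 9 per library), AMY1 (44 to 253 summed per genotype) and GPT2 (64 to 229).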
